A study of Saccharomyces cerevisiae with 8 samples.

Results

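In Saccharomyces cerevisiae, budding yeast, 37 genes of the tricarboxylic acid (TCA) cycle, the glyoxylate cycle, gluconeogenesis and the use of ethanol, acetate and lactate were followed across 8 2-colour Agilent expression arrays. The genes were listed by name from textbook pathway membership and matched to the array by symbol or by systematic open reading frame name. All 37 of 37 were found among the 6256 genes on the array, and all 37 were among the 6126 genes that passed the signal filter (a spot well above its background, in red or in green, on 2 or more arrays). They fall into 7 sub-pathways, namely the TCA cycle with 12 genes, the glyoxylate cycle with 5, gluconeogenesis with 2, anaplerosis with malic enzyme and the NADP isocitrate dehydrogenases with 5, ethanol, acetate and lactate enzymes with 5, transporters and the carnitine shuttle with 6, and regulators with 2.

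Yeast growing on glucose ferments it to ethanol and keeps many of these genes repressed. When glucose runs out, the kinase Snf1 inactivates the repressor Mig1, the activators Cat8, Sip4 and Adr1 turn on the glyoxylate, gluconeogenic and acetate genes, and the Hap2/3/4/5 complex raises TCA cycle and respiratory genes. When mitochondria fail, the Rtg1 and Rtg3 factors keep the first reactions of the TCA cycle, from citrate synthesis to 2-oxoglutarate, expressed for glutamate synthesis.

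The tested RNAs came from 7 aneuploid strains, whose chromosome number departs from whole sets (A2 and A3, A9 and A10, then A13, A14 and A15), with 1 array each. The control array carried the wild-type RNA WT1. On every array the tested RNA was labelled with Cy5 and a single other wild-type RNA, WT2, with Cy3, and every culture was in mid-log growth. The labels give neither the extra chromosomes, the mating type, the ploidy nor the carbon source, and do not say whether cultures were separate. The spread behind each p-value is that between the 7 strains of these samples, with 1 array each. Strain, culture and technical differences within it cannot be told apart. With no dye swap, a dye effect common to the arrays remains in each ratio over WT2 and cancels only in a difference from WT1.

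The median spot of an array read 539 to 1532 in red, with a local background of 36 to 37, and 364 to 614 in green, with one of 21 to 22.5. A chromosome is called raised here when the median log2 ratio of its genes over WT2 was at least 0.3. By that measure II and XII were raised in A2, I, II and XII in A3, II, XIII and XVI in A9, III, XI, XII and XV in A10, I in A13, IX and XVI in A14, and II, X and XI in A15, with none in WT1. The cut lies close to some medians. In A13, II at 0.278, XI at 0.263, VIII at 0.228 and XIII at 0.190 are not called raised, whereas XII in A10 is called at 0.320. The libraries A9 and A10 stood apart by mating-type genes. In A10 all 9 of 9 haploid-specific genes were at least 2-fold lower than in WT2, against 2 in A9, 1 in A15 and 0 in WT1, and in A9 the median of 4 alpha-specific genes was 4.89, against 0.34 in A10. The fits over strains are therefore also given without A10 and A9. Of the 37 genes, 34 were well above background in both channels on all 8 arrays and 0 were saturated.

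The strains differed widely in these genes, and A10 had the most of them high. In A10, 18 of the 37 genes (48.6%) were at least 2-fold higher than in WT2, against 8.41% of all genes tested on that array, and 0 were at least 2-fold lower, against 3.46% of all genes. The median of the 37 genes was 0.97 in A10, 0.31 in A9, 0.13 in A14, 0.10 in A13, -0.06 in A15, -0.09 in A2 and -0.10 in A3 on the log2 scale, against 0.01 in WT1. The median of all genes lay between -0.02 and 0.02 on each array.

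In the other 6 strains few of the genes passed 2-fold. A9 had 2 higher (CYB2 and ALD4; 4.24% of all genes) and 1 lower (ATO3; 1.24%). A14 had 2 higher (KGD1 and FUM1; 2.98%) and 1 lower (ATO3; 0.327%). A15 had 2 higher (PCK1 and PYC1; 2.29%) and 1 lower (MDH2; 1.27%). A13 had 2 higher (ALD4 and YAT1; 0.426%) and 0 lower (0.0984%). A2 had 0 higher (2.68%) and 1 lower (MDH2; 1.1%), and A3 had 0 higher (2.08%) and 0 lower (0.686%). On the WT1 array 0 genes passed in either direction (0.0% of all genes higher and 0.0163% lower), and the 37 ratios of WT1 over WT2 ran from -0.24 to 0.22.

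**Figure D1:**
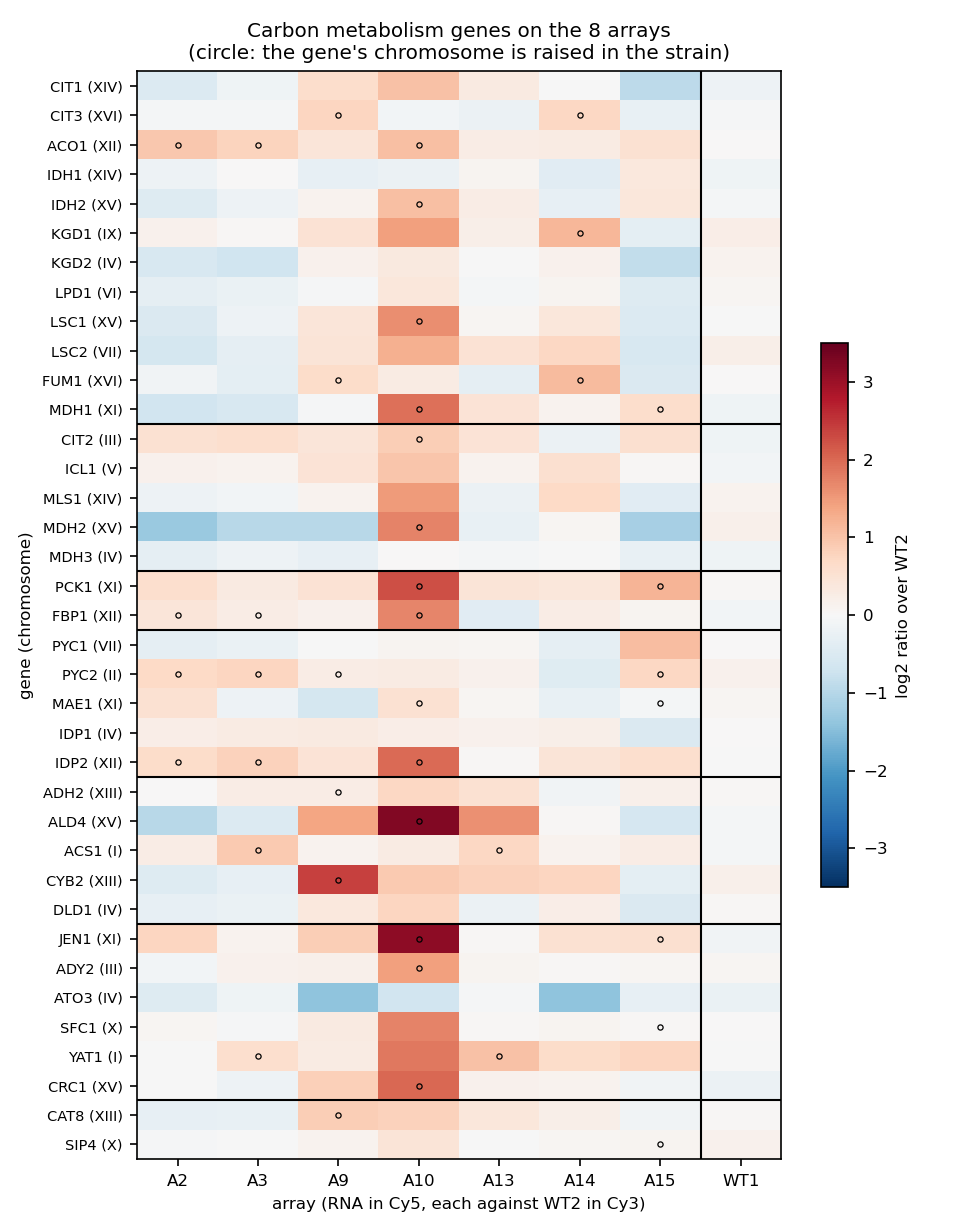
Log2 ratio over WT2 (colour) of each of the 37 genes (rows, grouped by sub-pathway) on each array (columns, the 7 strains and then WT1). The A10 column holds 18 genes at least 2-fold above WT2, and the WT1 column holds none.

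**Figure D2:**
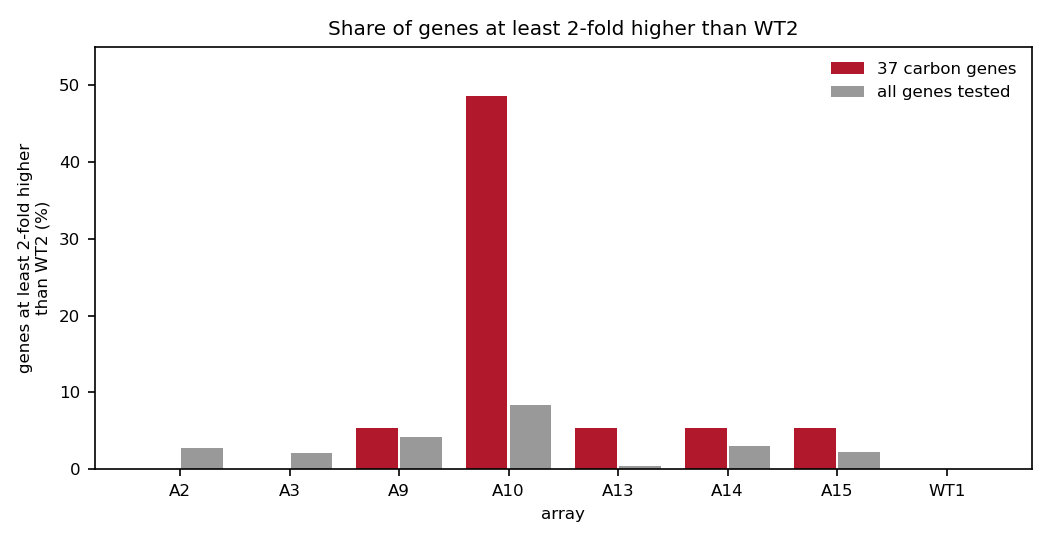
Percent of the 37 genes and of all genes tested that were at least 2-fold higher than WT2 on each array. In A10, 48.6% of the 37 genes and 8.41% of all genes were higher.

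The TCA cycle genes split the strains. Their median was 1.05 in A10, 0.43 in A9, 0.21 in A14 and 0.16 in A13, and -0.18 in A3, -0.39 in A2 and -0.39 in A15, against 0.01 in WT1. Ratios above 0 were found for 10 of the 12 genes in A10, 9 in A9, 9 in A14 and 8 in A13, but for 4 in A15, 3 in A3 and 2 in A2, against 6 in WT1. The mean of the 7 medians, 0.13 ± 0.51 (SD, n = 7), was smaller than its spread over strains, and without A10 and A9 it was -0.12.

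ACO1 (YLR304C, chromosome XII), which encodes aconitase, stood above WT1 in every strain. Its log2 ratio was 0.95 in A2, 0.78 in A3, 0.42 in A9, 1.06 in A10, 0.27 in A13, 0.28 in A14 and 0.52 in A15, against 0.01 in WT1. The 3 highest strains are those with chromosome XII raised. After subtraction of the chromosome's median on each array the 7 strains still ran from 0.27 to 0.74, against 0.02 in WT1. On each scale the 7 strains thus stood above the single WT1 array. Of all genes, 6.88% did so over WT2 and 7.61% relative to the chromosome.

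The mitochondrial citrate synthase gene CIT1 (YNR001C, chromosome XIV) had ratios of 1.04 in A10, 0.60 in A9, 0.33 in A13, -0.02 in A14, -0.16 in A3, -0.49 in A2 and -0.91 in A15, against -0.19 in WT1. The strains lay on both sides of WT1, and the highest and lowest differed by 1.95. CIT3, for the minor mitochondrial citrate and methylcitrate synthase on chromosome XVI, was highest in A9 at 0.75 and A14 at 0.72, the strains with that chromosome raised, against -0.03 in WT1. Relative to the chromosome its values over the strains were -0.17 to 0.19, against -0.04 in WT1.

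IDH1 and IDH2 encode the subunits of the mitochondrial NAD-dependent isocitrate dehydrogenase. IDH1 (chromosome XIV) stayed between -0.40 in A14 and 0.36 in A15, against -0.15 in WT1. IDH2 (chromosome XV) was 1.06 in A10 and between -0.46 and 0.38 in the other strains, against -0.07 in WT1. Relative to chromosome XV, which was raised in A10, the A10 value of IDH2 was 0.48. Thus 1 subunit gene of the enzyme was past 2-fold in A10 and the other was not.

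KGD1 (YIL125W, chromosome IX) and KGD2 (YDR148C, chromosome IV) encode the E1 and E2 components of 2-oxoglutarate dehydrogenase. KGD1 was 1.44 in A10, 1.15 in A14, 0.52 in A9, 0.21 in A13, 0.14 in A2, 0.05 in A3 and -0.33 in A15, against 0.22 in WT1. KGD2 was 0.35 in A10, 0.16 in A9, 0.14 in A14, -0.03 in A13, -0.57 in A2, -0.70 in A3 and -0.87 in A15, against 0.12 in WT1. Relative to chromosome IX, raised in A14, the A14 value of KGD1 was 0.36. On every array KGD1 stood further up than KGD2. The difference was 0.24 to 1.09 in the strains, against 0.10 in WT1, and relative to the chromosomes 0.19 to 0.92, against 0.07. WT1 is a single array, and no share over other gene pairs is given beside this difference. LPD1, whose E3 product is shared with pyruvate dehydrogenase, moved less, from -0.45 in A15 to 0.39 in A10, against 0.07 in WT1.

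LSC1 and LSC2 encode the subunits of succinyl-CoA ligase and were high in the same strain. LSC1 (chromosome XV) was 1.64 in A10, or 1.06 relative to its raised chromosome, and -0.50 to 0.43 in the other strains, against 0.00 in WT1. LSC2 (chromosome VII) was 1.25 in A10, 0.73 in A14, 0.50 in A13, 0.45 in A9, -0.32 in A3, -0.57 in A15 and -0.61 in A2, against 0.21 in WT1. LSC2 lies on a chromosome that was raised in no strain. FUM1, for fumarase on chromosome XVI, was highest in A14 at 1.09 and A9 at 0.65, against 0.01 in WT1. Relative to that raised chromosome the values were 0.34 in A14 and 0.10 in A9.

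The 3 malate dehydrogenase genes differed. MDH1 (YKL085W, chromosome XI), the mitochondrial form, was 1.92 in A10, 0.61 in A15, 0.48 in A13, 0.13 in A14, -0.04 in A9, -0.55 in A3 and -0.67 in A2, against -0.15 in WT1. MDH2 (YOL126C, chromosome XV), the cytosolic form used in gluconeogenesis and the glyoxylate cycle, was 1.73 in A10, 0.08 in A14, -0.25 in A13, -0.96 in A3, -0.97 in A9, -1.16 in A15 and -1.31 in A2, against 0.16 in WT1. Relative to their chromosomes MDH1 was 1.28 in A10 and -0.04 in A15, and MDH2 1.15 in A10. MDH2 was thus below WT1 in 6 of 7 strains and above it in A10, and its range over strains was 3.03. MDH3, the peroxisomal form, stayed between -0.33 and 0.00 in the strains, against -0.14 in WT1.

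MDH1 stood further up than MDH2 in all 7 strains. The difference of their log2 ratios was 0.06 to 1.76 in the strains, against -0.31 in WT1, and relative to the chromosomes 0.06 to 0.99, against -0.32. All 7 strains lay above the single WT1 array on either scale. Over WT2 the A14 difference of 0.06 and the A10 difference of 0.20 were the smallest among the strains. The pair was picked among several, and no share over all gene pairs is given beside it. Among the pairs compared, KGD1 minus KGD2 and JEN1 minus ADY2 also stood above WT1 in 7 of 7 strains over WT2, and the rest did not. Of single genes, 6.88% stood above WT1 in 7 of 7 strains over WT2, which is not a rate for differences of 2 genes.

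Among the glyoxylate cycle genes the median was 0.97 in A10 and between -0.26 and 0.12 in the other strains, against -0.10 in WT1. ICL1 (YER065C, chromosome V), for isocitrate lyase, was 0.97 in A10, 0.57 in A14, 0.47 in A9, 0.15 in A2, 0.13 in A13, 0.12 in A3 and 0.03 in A15, against -0.10 in WT1. All 7 strains were above WT1, and chromosome V was raised in no strain. MLS1 (chromosome XIV), for malate synthase, the partner enzyme of the cycle, was 1.49 in A10 and 0.68 in A14 but -0.40 to 0.12 in the other strains, against 0.13 in WT1. ICL1 stood further up than MLS1 by 0.22 to 0.43 in A2, A3, A9, A13 and A15, whereas the difference was -0.52 in A10 and -0.11 in A14, against -0.23 in WT1.

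CIT2 (YCR005C, chromosome III), the peroxisomal citrate synthase and the classic target of the retrograde factors Rtg1 and Rtg3, was 0.87 in A10, 0.60 in A3, 0.56 in A15, 0.53 in A2, 0.47 in A13, 0.42 in A9 and -0.20 in A14, against -0.14 in WT1. The other strains, 6 of 7, were above WT1 and A14 was just below it. CIT2 stood further up than CIT1 by 1.47 in A15, 1.03 in A2 and 0.76 in A3, against 0.05 in WT1, and CIT1 itself was below WT1 in A15 and A2 but not in A3. Relative to chromosome III, raised in A10, the A10 value of CIT2 was 0.20. RTG3 itself, on chromosome II, was 0.75 in A2, 0.73 in A3, 0.64 in A9 and 0.60 in A15, the strains with that chromosome raised, and -0.39 to 0.19 in the others, against -0.08 in WT1.

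Both gluconeogenic genes were highest in A10. PCK1 (YKR097W, chromosome XI), for phosphoenolpyruvate carboxykinase, was 2.26 in A10, 1.18 in A15, 0.58 in A2, 0.49 in A9, 0.46 in A13, 0.39 in A14 and 0.32 in A3, against 0.03 in WT1. The 2 highest strains have chromosome XI raised, and relative to that chromosome all 7 strains stayed above WT1, at 0.20 to 1.62 against 0.03. FBP1 (chromosome XII), for fructose bisphosphatase, was 1.72 in A10, 0.42 in A2, 0.27 in A14, 0.25 in A3, 0.14 in A9, 0.11 in A15 and -0.38 in A13, against -0.10 in WT1. Relative to its chromosome FBP1 was 1.40 in A10 and -0.34 to 0.27 in the other strains, against -0.09 in WT1, so that outside A10 it lay on both sides of WT1.

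In the group of pyruvate carboxylases, malic enzyme and NADP isocitrate dehydrogenases the strains did not order as in the TCA cycle. The median was 0.58 in A15, 0.52 in A2, 0.29 in A10, 0.28 in A3, 0.25 in A9, 0.08 in A13 and -0.27 in A14, against 0.01 in WT1. IDP2 (YLR174W, chromosome XII), the cytosolic NADP-dependent enzyme, was 1.99 in A10, 0.81 in A3, 0.65 in A2, 0.58 in A15, 0.49 in A9, 0.45 in A14 and 0.04 in A13, against -0.03 in WT1. Relative to chromosome XII, raised in A10, A3 and A2, it was 1.67 in A10, 0.60 in A9, 0.48 in A15, 0.45 in A14, 0.30 in A3, 0.08 in A13 and 0.05 in A2, against -0.02 in WT1. IDP2 was thus above WT1 in every strain on both scales, while the order of the strains below A10 changed. Its mitochondrial counterpart IDP1 was 0.14 to 0.31 in 6 strains and -0.51 in A15, against 0.01 in WT1.

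PYC1 and PYC2 encode pyruvate carboxylases, which make oxaloacetate. PYC1 (YGL062W, chromosome VII) was 1.07 in A15 and -0.32 to 0.10 in the other strains, against 0.00 in WT1. PYC2 (chromosome II) was 0.74 in A3, 0.74 in A15, 0.68 in A2 and 0.25 in A9, the strains with chromosome II raised, and 0.29 in A10, 0.15 in A13 and -0.41 in A14, against 0.14 in WT1. Relative to chromosome II the values of PYC2 over the strains were -0.40 to 0.43, against 0.14. MAE1, the mitochondrial malic enzyme gene on chromosome XI, was 0.52 in A2, 0.52 in A10 and -0.62 to 0.06 in the others, against 0.06 in WT1. Relative to that chromosome it was -0.12 in A10 and -0.70 in A15, where it was raised.

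ALD4 (YOR374W, chromosome XV), the mitochondrial aldehyde dehydrogenase that makes acetate, had the highest ratio and the widest range of the 37 genes in the background-corrected ratios. In the processed signals, which are not drawn toward 0 for dim genes, JEN1 in A10 at 3.89 exceeded ALD4 at 3.27, and CYB2 had the widest range at 5.36, against 4.29 for ALD4. The background-corrected ratio of ALD4 was 3.25 in A10, 1.60 in A13, 1.38 in A9, 0.04 in A14, -0.47 in A3, -0.59 in A15 and -0.96 in A2, against -0.08 in WT1. The processed signal behind the A10 value was 40519 for A10, against 4209 for WT2 on the same array. Chromosome XV was raised in A10 only. Relative to it ALD4 was 2.67 in A10, 1.66 in A13 and 1.43 in A9, and -0.91 in A2, against -0.08 in WT1.

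CYB2 (YML054C, chromosome XIII), the mitochondrial L-lactate dehydrogenase cytochrome b2, was highest in A9. Its ratio was 2.40 in A9, 0.93 in A10, 0.82 in A13, 0.74 in A14, -0.30 in A3, -0.34 in A15 and -0.44 in A2, against 0.17 in WT1. The processed signals were 1310 for A9 and 102 for WT2 on that array, a log2 ratio of 3.68. On that scale CYB2 was -1.69 in A2 and -1.43 in A15, past 2-fold lower, against 0.33 in WT1. Chromosome XIII was raised in A9, and relative to it CYB2 was 1.71 in A9, against 0.16 in WT1. DLD1, which encodes the D-lactate dehydrogenase of mitochondria, stayed between -0.50 in A15 and 0.74 in A10, against 0.05 in WT1. In A9 the L-lactate gene stood 2.03 further up than the D-lactate gene, against 0.12 in WT1.

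ACS1 (YAL054C, chromosome I), for acetyl-CoA synthetase, was 0.92 in A3, 0.73 in A13, 0.28 in A10, 0.27 in A2, 0.26 in A15, 0.12 in A9 and 0.11 in A14, against -0.06 in WT1. The 2 highest strains have chromosome I raised. Relative to it the strains lay close together, at 0.11 to 0.33, all above WT1 at -0.02. ADH2, the alcohol dehydrogenase that oxidises ethanol, was 0.72 in A10, 0.54 in A13 and -0.12 to 0.26 in the others, against 0.05 in WT1. Relative to chromosome XIII, raised in A9, its A9 value of 0.26 became -0.43. ADH2 resembles other alcohol dehydrogenase genes in sequence, and signal shared between them was not tested.

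The transporter and carnitine genes had a median of 1.79 in A10 and -0.02 to 0.30 in the other strains, against -0.08 in WT1. JEN1 (YKL217W, chromosome XI), the lactate and pyruvate permease, was 3.12 in A10, 0.86 in A9, 0.76 in A2, 0.57 in A15, 0.53 in A14, 0.14 in A3 and 0.05 in A13, against -0.13 in WT1. The processed signals were 3130 for A10 and 210 for WT2. Relative to its chromosome JEN1 was 2.48 in A10, and A13 at -0.21 then lay below WT1 at -0.14.

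YAT1 and CRC1 encode the outer carnitine acetyltransferase and the inner-membrane acetylcarnitine carrier of mitochondria. YAT1 (chromosome I) was 1.85 in A10, 1.02 in A13, 0.74 in A15, 0.64 in A14, 0.58 in A3, 0.29 in A9 and -0.02 in A2, against -0.02 in WT1. CRC1 (chromosome XV) was 2.002 in A10, 0.83 in A9 and -0.17 to 0.14 in the others, against -0.20 in WT1. Chromosome I was raised in A13 and A3 but not in A10. Relative to it YAT1 was 1.86 in A10, 0.43 in A13 and -0.09 in A3, against 0.01 in WT1, so A3 then lay below WT1. CRC1 was 1.42 in A10 relative to chromosome XV, raised there, against -0.20 in WT1.

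SFC1, the mitochondrial succinate and fumarate carrier gene, was 1.73 in A10 and -0.03 to 0.32 in the others, against 0.01 in WT1. ADY2, the acetate transporter gene, was 1.45 in A10, or 0.78 relative to its raised chromosome, and -0.09 to 0.17 in the others, against 0.06 in WT1. Both were dim. SFC1 was not well above background in WT2 on the A9 array, where A9 was at least 1.25-fold higher, nor was ADY2, where A9 was at least 1.12-fold higher.

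ATO3 (YDR384C, chromosome IV), a putative ammonium exporter of the same family as ADY2, moved the other way. It was -1.41 in A9, -1.41 in A14, -0.67 in A10, -0.45 in A2, -0.28 in A15, -0.14 in A3 and -0.03 in A13, against -0.24 in WT1. A9 and A14 stood far below the other strains, and A3 and A13 lay above WT1. Chromosome IV was raised in no strain, and relative to it ATO3 was -1.29 in A9 and -1.39 in A14, against -0.24 in WT1.

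Of the regulators, CAT8, the activator of gluconeogenic and glyoxylate genes, was 0.87 in A9, 0.80 in A10, 0.39 in A13, 0.21 in A14, -0.13 in A15, -0.26 in A3 and -0.29 in A2, against 0.04 in WT1. Relative to chromosome XIII, raised in A9, CAT8 was 0.97 in A10 and 0.17 in A9, against 0.03 in WT1, so the order of these 2 strains turned. SIP4, a related activator, was well above background as tested RNA only in A10, where it was at least 1.37-fold higher than in WT2.

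**Figure D3:**
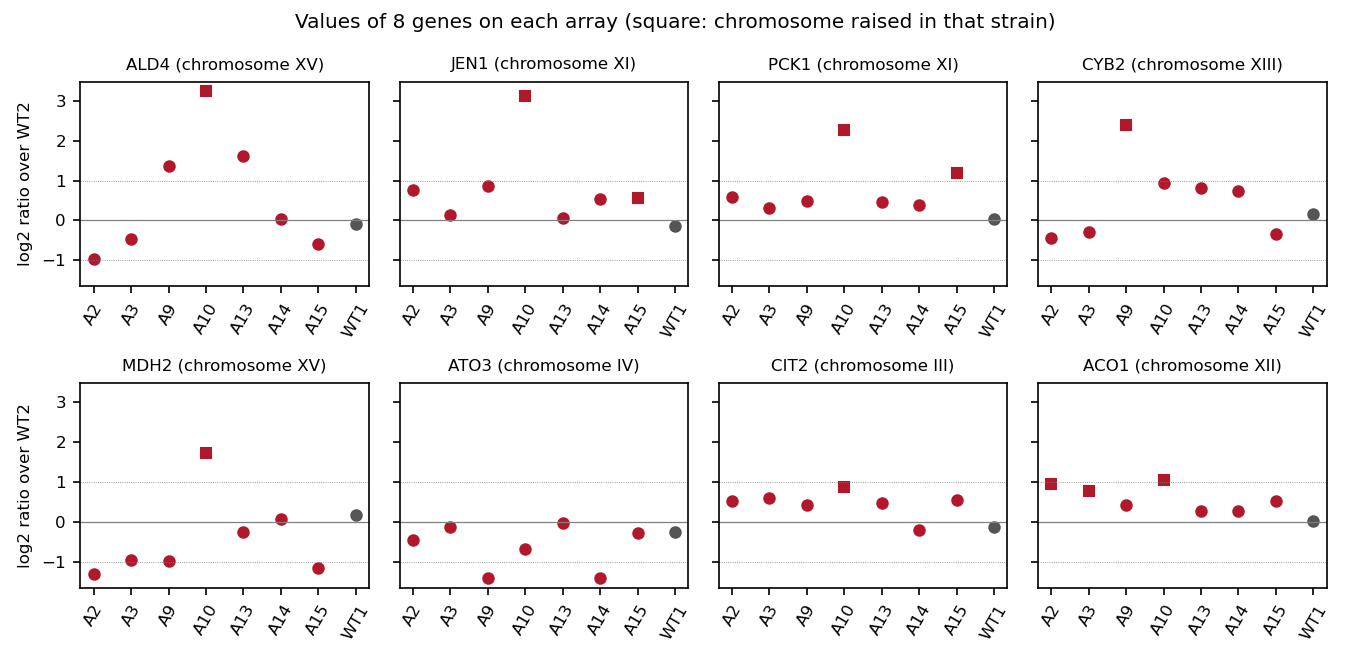
Log2 ratio over WT2 of selected genes on each array, with the 7 strains left of WT1 and 1 point per array. MDH2 and ATO3 run mostly below WT1, ALD4 spans -0.96 in A2 to 3.25 in A10, and ACO1 lies above WT1 in all 7 strains.

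Set side by side, the sub-pathways did not move as a block. Gluconeogenesis stood further up than the TCA cycle by 1.03 in A15, 0.94 in A10, 0.89 in A2 and 0.46 in A3, and differed from it by -0.12 in A13, -0.11 in A9 and 0.12 in A14, against -0.04 in WT1. The anaplerotic group stood 0.97, 0.91 and 0.45 above the TCA cycle in A15, A2 and A3, but below it by 0.76 in A10 and 0.48 in A14, against 0.00 in WT1. In 7 of 7 strains the median of gluconeogenesis (0.59 ± 0.65, SD, n = 7) and that of the transporter and carnitine group (0.34 ± 0.65) exceeded WT1. Relative to the chromosomes this held in 6 of 7 strains for gluconeogenesis and in 7 of 7 for the transporters. Without A10 and A9 the mean was 0.36 for gluconeogenesis, 0.24 for the anaplerotic group, 0.054 for the transporter and carnitine group, -0.12 for the TCA cycle and -0.11 for the glyoxylate cycle. Relative to the chromosomes gluconeogenesis differed from the TCA cycle by 0.85 in A10, 0.64 in A15, 0.56 in A2, 0.19 in A3, 0.19 in A9, 0.18 in A14 and -0.25 in A13, against -0.04 in WT1, so A9 changed sign. The anaplerotic group differed from it by 0.60 in A15, 0.39 in A2, 0.16 in A3, -0.23 in A10 and -0.41 in A14, against 0.01 in WT1. Group sizes are small, and a gene such as IDP2 or ATO3 could be far from its group's median. The groups also differ in brightness, and the ratios of dim genes are drawn toward 0. In A15 the dim gene PCK1 was 1.18 here and 1.98 in the processed signals, whereas the bright gene CIT1 was -0.91 in both. How far this enters the differences between groups was not tested.

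**Figure D4:**
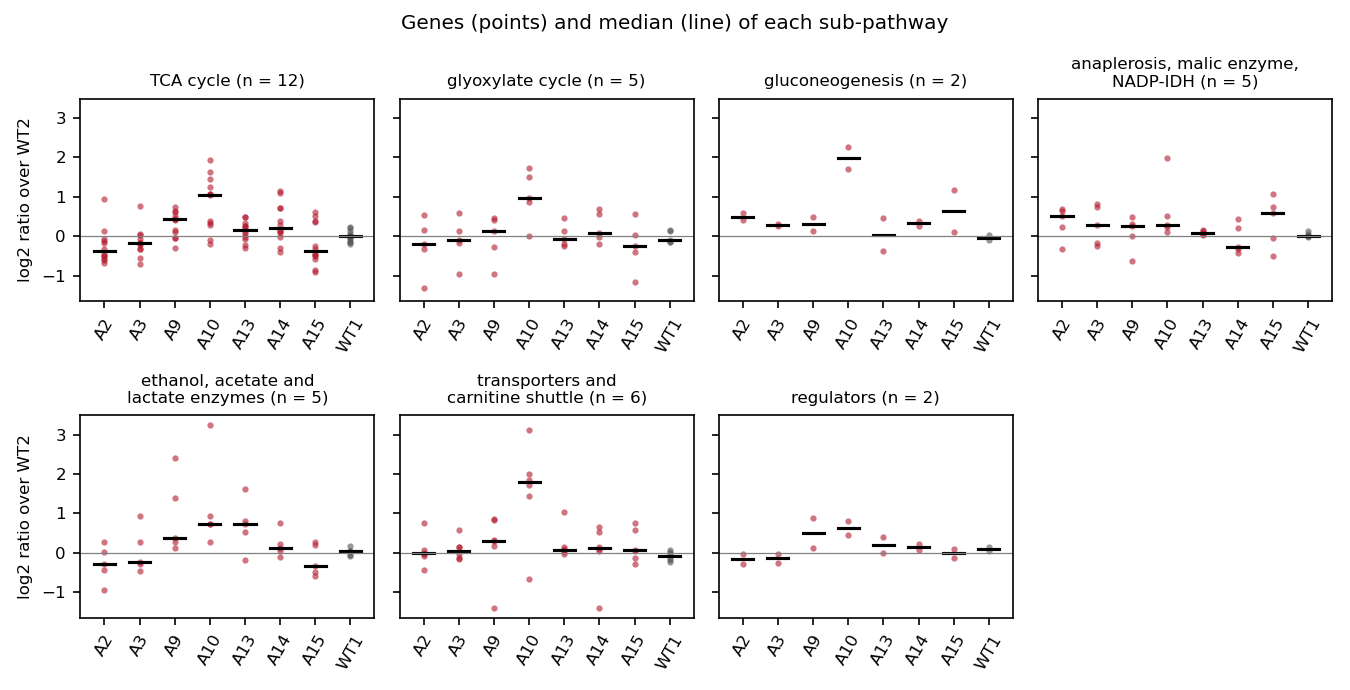
Median log2 ratio over WT2 of each of the 7 sub-pathways (panels) on each array, with the strains left of WT1 and points for the single genes. The A10 median of gluconeogenesis is 1.99 and that of the transporter and carnitine group 1.79, while the TCA cycle medians of A2, A3 and A15 lie below 0.

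Over strains, 8 of the 37 genes (21.6%) were higher than WT1 in 7 of 7 strains, against 6.88% of all genes, and 0 were lower in 7 of 7, against 7.34%. The 8 were ACO1, ICL1, PCK1, IDP2, ACS1, JEN1, YAT1 and CRC1, of which ACO1 is the only TCA cycle gene. Relative to the chromosome 6 of the 37 (16.2%) were higher in 7 of 7 strains, against 7.61% of all genes, since JEN1 and YAT1 left the set, and 0 were lower, against 8.13%. All these comparisons share the single WT1 array. The 37 genes also varied more between strains, with a median SD over strains of 0.53, against 0.32 for all genes, and relative to the chromosome 0.48 against 0.23. A range over strains of at least 2 on the log2 scale was found for 8 of the 37 (LSC1, MDH1, MDH2, FBP1, ALD4, CYB2, JEN1 and CRC1), against 5.12% of all genes.

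In the fit of strains minus WT1 with limma (7 arrays against 1, Benjamini-Hochberg adjustment over all genes tested, threshold 0.05) 0 of the 37 genes rose and 0 fell, against 0.0% of all genes, and 0 had an unadjusted p under 0.05, against 0.522%. Relative to the chromosome the counts were again 0 and 0 (0.0% of all genes), with 0 at the unadjusted threshold against 0.849%. CIT2 averaged 0.60 above WT1 (SE 0.329), ACO1 0.60 (SE 0.323), IDP2 0.74 (SE 0.566), PCK1 0.78 (SE 0.645) and JEN1 0.99 (SE 0.944), each with a limma adjusted p of 0.9996. In simulated data with 7 arrays against 1 the fit recovered 16.0% of genes changed by 1 and 63.0% of genes changed by 2 on the log2 scale. There a common change of 2-fold was mostly not called. The simulation gave every array, WT1 included, the SD of each gene over the strains. In the data the SD over all genes was 0.156 in WT1, against 0.271 to 0.708 in the strains, so recovery in these data may differ.

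Against WT2 itself, a fit that holds no estimate of wild-type spread and keeps any dye effect, 1 of the 37 genes rose and 0 fell in limma, against 2.33% of all genes higher, 3.0% lower and 5.34% in either direction. An unadjusted p under 0.05 was found for 12 of the 37, against 26.8% of all genes. The gene was ACO1, with a mean log2 ratio of 0.61 (SE 0.114, limma adjusted p = 0.0348). Relative to the chromosome 4 rose and 0 fell, against 5.19% of all genes higher and 6.2% lower. The 4 are 10.8% of the 37 genes, against 11.4% of all genes in either direction, and so near the background. At the unadjusted threshold the count was 9, against 29.9% of all genes.

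By limma relative to the chromosome ACO1 averaged 0.42 (SE 0.0694, adjusted p = 0.0154), above WT1 in 7 of 7 strains. PCK1 averaged 0.62 (SE 0.151, limma adjusted p = 0.0346) and ACS1 0.22 (SE 0.0522, limma adjusted p = 0.0312), both also above WT1 in 7 of 7. CIT2 averaged 0.38 (SE 0.0976, limma adjusted p = 0.0412), above WT1 in 6 of 7. ACO1 was called without any single strain but not among the 3 strains in the slide row of WT1 (limma adjusted p = 0.402). The other 3 calls ended when single strains were left out, CIT2 and ACS1 without A2, A3, A9, A13 or A15 and PCK1 without A2, A3, A9, A13, A14 or A15. Without A10 and A9 together, ACO1 and PCK1 were called.

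Several genes with wide ranges were not called, and in each the strains lay on both sides of WT2. ALD4 averaged 0.57 relative to the chromosome (SE 0.418, limma adjusted p = 0.386), MDH2 -0.44 (SE 0.266, limma adjusted p = 0.298) and CYB2 0.48 (SE 0.246, limma adjusted p = 0.221). Without A10, MDH2 was -0.70 (limma adjusted p = 0.0374), IDP2 0.33 (limma adjusted p = 0.0399) and ICL1 0.30 (limma adjusted p = 0.0429), and all 3 then passed. With A10 their values were -0.44, 0.52 and 0.41.

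The chromosomes that were raised in each strain carried many of the high values. Over the 7 strains the 37 genes give 42 pairs of a gene and a strain in which the gene's chromosome was raised, and 217 in which it was not. On raised chromosomes 41 of the 42 values were above 0 (97.6%, against 92.3% of all genes there) and 17 were at least 2-fold higher (40.5%, against 15.4%). Their median was 0.84, against 0.60 for all genes on raised chromosomes. MAE1 in A15 at -0.06 was the exception. Elsewhere 122 of 217 values were above 0 (56.2%, against 41.8% of all genes there) and 9 were at least 2-fold higher (4.15%, against 0.967%), with a median of 0.07, against -0.05. The pairs share strains and genes and are not replicates.

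A10 supplied most of these values. Without A10, 5 of 28 values on raised chromosomes were at least 2-fold higher (17.9%, against 14.004% of all genes there), with a median of 0.72, against 0.62, and 3 of 194 elsewhere (1.55%, against 0.488%). On its raised chromosomes 12 of 14 genes were at least 2-fold higher, against 20.2% of all genes there, with a median of 1.72, against 0.53. CIT2 at 0.87 and MAE1 at 0.52 were the remaining pair. On its other chromosomes 6 of 23 genes were at least 2-fold higher, against 4.28%, with a median of 0.46, against -0.15. Those 6 were KGD1, LSC2, CIT1, MLS1, SFC1 and YAT1. Relative to the chromosome 17 of the 37 genes were still at least 2-fold higher in A10, against 5.94% of all genes, and 0 were lower (2.33%). On that scale A9 had 2 higher (1.73%) and 1 lower (1.16%), A15 had 1 higher (0.621%) and 1 lower (1.19%), and A14 had 0 higher (0.589%) and 1 lower (0.409%). A13 had 1 higher (0.262%) and 0 lower (0.0984%), A2 had 0 higher (0.262%) and 1 lower (1.05%), and A3 had 0 higher (0.114%) and 0 lower (0.605%).

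**Figure D5:**
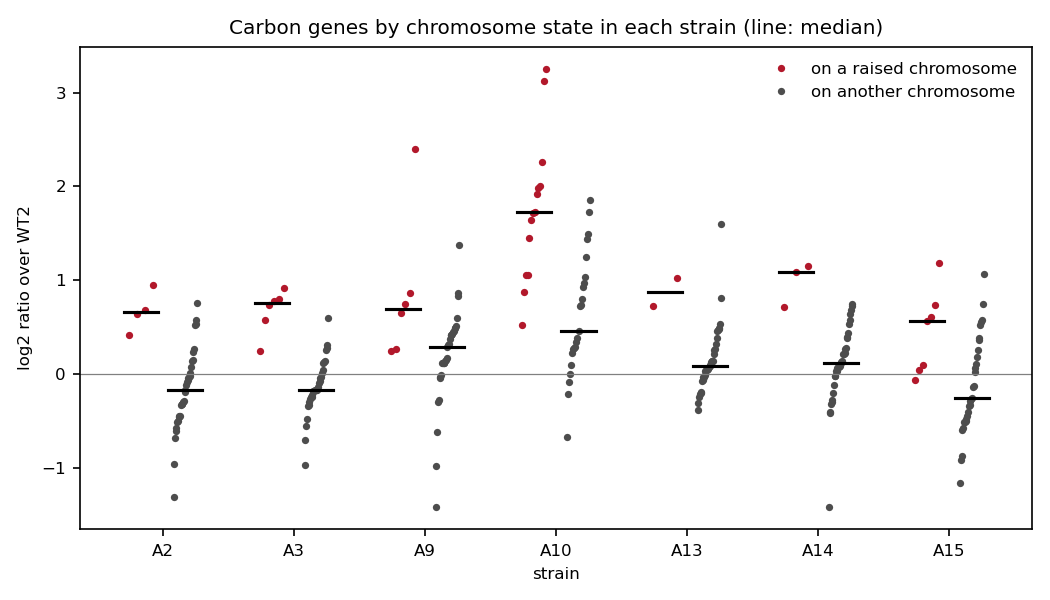
Log2 ratio over WT2 of the 37 genes in each strain, split by whether the gene's chromosome was raised there. In A10 the median is 1.72 on raised chromosomes and 0.46 on the others.

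The WT2 signals themselves were not alike on every array for some of these genes. For PCK1 the processed WT2 signal was 416 on the A10 array, against 112 to 147 on the other 7, and for JEN1 it was 210, against 94.0 to 139. Over the 37 genes the WT2 signal on the A10 array was 1.25 times its median on the other arrays, within 0.961 to 3.34. A ratio in A10 is thus taken against a WT2 value that was higher there for PCK1 and JEN1, though not for MDH1 at 0.961 times. No value over all genes is given beside these, and the cause was not tested.

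Genes next to these in the pathways were read from lists of 46 genes. The 4 succinate dehydrogenase genes, the remaining TCA cycle enzyme, were all at least 2-fold higher in A10, with SDH1 at 2.89, SDH2 at 2.11, SDH3 at 1.68 and SDH4 at 1.58, against 0.08, -0.06, -0.38 and -0.18 in WT1. In A2 the same 4 genes were -0.12, -0.19, -0.99 and -0.79. Relative to their chromosomes they were 2.24, 1.79, 1.04 and 1.80 in A10, and -0.06, -0.78, -0.94 and -0.72 in A2. HAP4, the limiting subunit of the Hap complex on chromosome XI, was 2.18 in A10, 1.13 in A13, 0.89 in A9, 0.56 in A15, 0.27 in A14, -0.21 in A3 and -0.32 in A2, against 0.11 in WT1. Relative to that chromosome, raised in A10 and A15, HAP4 was 1.54 in A10 and -0.08 in A15, against 0.11 in WT1. ADR1 was 1.34 in A10 and 0.65 in A13, against 0.02 in WT1. The repressor gene MIG1 was below WT1 in all 7 strains, at -0.67 to -0.09 against -0.04, as were 7.34% of all genes. Relative to its chromosome A2 at -0.01 was not below WT1.

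In strains minus WT1 0 of the 46 neighbours were called by limma. Over WT2 relative to the chromosome 1 of 7 pyruvate entry genes rose and 2 fell, 2 of 8 isoenzyme genes fell, 2 of 15 other regulators fell, and 0 of the succinate dehydrogenase, mitochondrial carrier and glucose-repressed genes were called, against 5.19% of all genes higher and 6.2% lower in that fit. PDB1, the E1 beta subunit of pyruvate dehydrogenase, averaged 0.48 in the strains (limma adjusted p = 0.0135), but was also 0.32 in WT1, so that the difference from WT1 was 0.16 (SE 0.214). PDX1, of the same complex, averaged -0.29, against -0.12 in WT1, and MPC2, of the mitochondrial pyruvate carrier, -0.46, against -0.26. ALD5 and ALD6, for acetaldehyde dehydrogenases, averaged -0.54 and -0.46, against 0.02 and 0.17 in WT1. MIG1 averaged -0.30, against -0.04 in WT1, and SNF4, a subunit of the Snf1 kinase, -0.20, against 0.16.

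Among glucose-repressed genes outside these pathways, the median of HXK1, GLK1, SUC2, HXT2, HXT6 and HXT7 was 2.80 in A10, 0.92 in A13, 0.19 in A9, -0.12 in A14, -1.02 in A15, -1.20 in A3 and -1.52 in A2, against 0.04 in WT1; HXT6 and HXT7 are near-identical copies that the probes may not tell apart. The list did not move together, since SUC2, for invertase, was 1.53 in A10, 1.02 in A2, 0.94 in A14, 0.94 in A15, 0.56 in A3, 0.07 in A13 and -0.32 in A9, against 0.11 in WT1. General stress genes, a list of 13, had a median of 1.78 in A10, 1.63 in A9, 0.71 in A13, 0.40 in A14, -0.20 in A3, -0.21 in A2 and -0.57 in A15, against 0.05 in WT1. At least 2-fold higher were 9 of these 13 in A10 (8.41% of all genes), 9 in A9 (4.24%), 3 in A13 (0.426%), 2 in A14 (2.98%) and 1 in A15 (2.29%). The haploid-specific genes had a median of -2.88 in A10, -0.56 in A15, -0.34 in A9 and -0.10 to 0.00 in the others, against 0.10 in WT1, and the 7 a-specific genes of -4.40 in A9, -4.03 in A10, -1.84 in A15, -1.06 in A2, -1.04 in A3, -0.21 in A13 and 0.16 in A14, against 0.08. The medians of the general stress and of the glucose-repressed genes, like that of the TCA cycle, were higher in A10, A9, A13 and A14 than in A2, A3 and A15. Within these groups of strains the order differed between the lists. The haploid-specific and a-specific genes ordered the strains otherwise. The part of these lists in the A10 and A9 results above was not tested. Each strain was 1 sample, so a strain and its culture cannot be told apart.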

How the data were processed

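Total RNA was measured on 2-colour Agilent arrays, with red (Cy5) for the 7 strains and WT1 and green (Cy3) for WT2, per the labels. Per the file headers, Feature Extraction 10.5.1.1 quantified the spots. The deposited median spot and background intensity of both channels was used as given and had not been normalized, per the file headers. The deposited processed signal intensity had its background subtracted and its dyes normalized, per the file headers. The deposited log10 ratios are red over green processed signal, and the authors' deposited value table of log2 ratios matched them within 5e-04.

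Background was corrected by normexp with offset 50, which draws the ratios of dim genes toward 0, and ratios were normalized by loess within each array in limma 3.58.1 under R 4.3.3, with weight 0 for 536 control spots. Outlier-flagged spots were dropped and the 2 spots of a gene averaged. Symbols of assembly R64 were found for 5756 of 6256 genes, and 500 kept the file's name. The signal filter left 6126 genes to test, 53 of them without a value on some array. The array has 1 probe per gene. Columns that belong to no sample numbered 0.

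Each of 4 limma fits (lmFit, eBayes, two-sided, Benjamini-Hochberg over all genes) treated strains as replicates, and WT1 was assumed to vary like them. The values relative to the chromosome are ratios minus the median of the gene's chromosome on the same array. Lists were described by counts and medians. A bound for a dim gene used the lowest signal that was still well above background. The fits were tested on simulated data, where strains over WT2 recovered 90.0% of genes changed by 1 on the log2 scale. The 37 genes, the lists and the rule for named genes (the 37 and the listed neighbours) were chosen with earlier results of these data known. Alternatives were Agilent's processed signals, the deposited table, no filter, an intensity trend, the slide row of WT1 (from the position in the array files), leaving out each strain and, chosen after seeing the data, leaving out A10 and A9 or, for the counts by chromosome, A10 alone. Median signals took the place of mean signals.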

Additional observations from a re-analysis of the deposited data

Results flagged for a closer look

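Each of 44 results (the 37 genes and the 7 sub-pathway medians) was examined for a strain far from the other 6, meaning a gap to the next strain of more than 0.568 of the whole range over the 7 strains. Chance flags about 1 in 20 such groups if all 7 strains vary alike, and 12 of 44 (27.3%) stood apart, 9 of them through A10. A10 varied most, with an SD over all genes of 0.708, against 0.271 to 0.551 in the other strains. The share of all genes past this gap is not given. The 7 medians are built from the 37 genes, so the 44 results are not separate, and the 27.3% cannot be read as an excess. SFC1, ADY2 and SIP4 were not well above background on some arrays, so their gaps to the next strain are not measured. With these 3 genes left out as single results, 9 of 41 results stood apart, 6 of them through A10. The sub-pathway medians still hold these genes. The transporter and carnitine median lay between SFC1 and YAT1 in A10 (1.73 and 1.85) and in A9 (0.32 and 0.29), so its gap rests in part on a dim gene. All values are log2 ratios over WT2.

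In A10, JEN1 was 3.12 with the next strain at 0.86, IDP2 1.99 with the next at 0.81, and FBP1 1.72 with the next at 0.42. The dim genes SFC1, ADY2 and SIP4 read 1.73, 1.45 and 0.46 in A10, with the next strain's reading limited by background. Among sub-pathway medians A10 stood apart in gluconeogenesis (1.99, next 0.64), transporters and carnitine shuttle (1.79, next 0.30) and the glyoxylate cycle (0.97, next 0.12). The next reading of the transporter group, in A9, rests in part on SFC1, which was limited by background there. WT1 lay between -0.13 and 0.14 for these 6 genes.

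A15 stood apart from the other strains in opposite directions for PYC1, which was highest at 1.07 with the next strain at 0.10, and IDP1, which was lowest at -0.51 with the next at 0.14, against 0.00 and 0.01 in WT1. A14 was lowest for CIT2, at -0.20 with the next strain at 0.42, against -0.14 in WT1. Each strain was measured on 1 array, so these values have no replicate.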

How the results depend on the processing

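No paired analysis was possible because each strain has 1 array and the single WT1 array shares no pairing with 2 or more of them. The counts of the 37 genes called in strains minus WT1 were 0 under every alternative, on both scales. Over WT2 the count was 1, and it was 6 with Agilent's processed signals, 0 in the slide row of WT1, 0 without A10 and A9, and between 0 and 3 when each strain was left out in turn. Relative to the chromosome the count was 4, and it was 0 in the slide row of WT1, 2 without A10 and A9, and between 1 and 7 when each strain was left out. The count of 7, without A10, held 6 higher and 1 lower gene. Genes past 2-fold in either direction numbered 5 in A2, 3 in A3, 11 in A9, 7 in A14, 6 in A15 and 1 in WT1 with processed signals or the deposited table, against 1, 0, 3, 3, 3 and 0. The share of all genes past 2-fold with those sources is not given, so these counts cannot be told from a wider spread of all ratios. Relative to the chromosome, in the main processing, 1 gene passed in A13 and 1 in A14. Without A10, chosen after seeing the data, 5 values on raised chromosomes and 3 elsewhere were at least 2-fold higher, against 17 and 9. The mean of the regulators' median was 0.64 with either of those sources, against 0.16. When each strain was left out that of the TCA cycle ran from -0.03 to 0.21 and that of the glyoxylate cycle from -0.07 to 0.14, both lowest without A10. Without A10 and A9, CYB2 turned to -0.077 in strains minus WT1 and ALD4 to -0.018 over WT2 relative to the chromosome. The cause of these changes was not tested. The signal over background limits SFC1, ADY2 and SIP4 most.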

Other observations

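YHM2, a mitochondrial citrate carrier gene among the neighbours, lacked a value on the A13 and A14 arrays. Of the 37 genes, 35 had 2 unflagged spots on every array, and the largest difference between the spots of a gene on any array was 0.430 on the log2 scale, for CAT8, with a median of 0.0517.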
